A study of Mus musculus with 92 samples.

Results

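Mouse small intestinal organoids in which Eif4g2 had been deleted were compared with organoids that kept both intact copies of the gene. The comparison used 8 of the 92 libraries of the study, 4 from Eif4g2 flox/flox organoids and 4 from CreER-only organoids, chosen by their labels. The flox/flox libraries came from 4 organoid lines, S8872, S8876, S9309 and S9310, in which both Eif4g2 alleles carried loxP sites. The CreER-only libraries, titled wild-type and labelled A to D, were Eif4g2 +/+. Both groups carried Rosa26-CreER, a tamoxifen-dependent recombinase under a broadly active promoter, and both received 4-hydroxytamoxifen (4-OHT) at 0.5 µM for 24 h, so the recombinase and the drug were common to the compared organoids. All were grown in ENR medium (EGF, Noggin and R-spondin) and collected on day 6. Another group of the same set, 4 flox/+ lines (S9305, S9311, S9348 and S9349) with the same recombinase, drug and medium, is given side by side. The labels do not say whether CreER-only A to D came from separate mice, and the genotypes were in different lines, so line and genotype cannot be told apart beyond the spread between lines. The p-values measure the spread between these cultures.

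Eif4g2, also called DAP5 or NAT1, encodes a relative of the translation initiation factor eIF4G. It binds eIF4A and eIF3 but lacks the part of eIF4G that binds the cap-binding protein eIF4E, and it is known for initiation on selected mRNAs. The intestinal epithelium is renewed by Lgr5-positive stem cells at the base of the crypt, under Wnt and Notch signals. Their progeny become absorptive enterocytes or secretory cells, namely Paneth, goblet, enteroendocrine and tuft cells. Organoids in ENR hold all of these types in one epithelium without stroma.

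The sequences upstream of 5 genes are shown because they stand for a pair of groups described further on, sterol synthesis genes, which rose, and replication licensing genes, which fell. Each is the 250 bases before the gene's start in the RefSeq table for GRCm38.p6, written 5′ to 3′ on the gene's strand. In the first group, Hmgcs1 (chr13:119690101-119690350, + strand), Insig1 (chr5:28071162-28071411, + strand) and Idi1 (chr13:8885356-8885605, + strand), capitals mark CCAAT or its reverse complement ATTGG, the letters of the CCAAT box. In the second, Mcm5 (chr8:75109259-75109508, + strand) and Mcm6 (chr1:128359706-128359955, - strand), capitals mark TTTCGCGC or its reverse complement GCGCGAAA, the letters of a canonical E2F motif. Insig1, Idi1, Mcm5 and Mcm6 were chosen after their values were seen.
Hmgcs1: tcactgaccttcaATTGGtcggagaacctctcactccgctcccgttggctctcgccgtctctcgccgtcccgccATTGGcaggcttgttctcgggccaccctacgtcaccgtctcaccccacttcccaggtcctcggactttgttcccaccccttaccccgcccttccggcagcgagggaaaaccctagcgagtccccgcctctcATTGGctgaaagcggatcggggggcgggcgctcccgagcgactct
Insig1: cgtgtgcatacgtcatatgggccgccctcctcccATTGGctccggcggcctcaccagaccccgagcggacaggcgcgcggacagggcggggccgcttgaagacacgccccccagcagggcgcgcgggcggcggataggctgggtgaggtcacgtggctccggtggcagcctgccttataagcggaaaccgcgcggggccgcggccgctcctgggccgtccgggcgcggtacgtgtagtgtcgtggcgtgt
Idi1: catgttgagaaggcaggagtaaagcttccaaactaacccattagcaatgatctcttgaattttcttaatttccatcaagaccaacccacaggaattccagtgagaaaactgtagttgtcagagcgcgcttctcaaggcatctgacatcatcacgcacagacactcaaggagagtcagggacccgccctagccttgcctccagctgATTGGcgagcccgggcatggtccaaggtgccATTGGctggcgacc
Mcm5: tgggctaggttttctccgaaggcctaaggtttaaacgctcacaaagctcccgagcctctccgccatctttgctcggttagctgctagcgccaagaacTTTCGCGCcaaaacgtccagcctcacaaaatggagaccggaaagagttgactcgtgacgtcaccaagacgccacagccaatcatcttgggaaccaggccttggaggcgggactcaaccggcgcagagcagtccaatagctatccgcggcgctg
Mcm6: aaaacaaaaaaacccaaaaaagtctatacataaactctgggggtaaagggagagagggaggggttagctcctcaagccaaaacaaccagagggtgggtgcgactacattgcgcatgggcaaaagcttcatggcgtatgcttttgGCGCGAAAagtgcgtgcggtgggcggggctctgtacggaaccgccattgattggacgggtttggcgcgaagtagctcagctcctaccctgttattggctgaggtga

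Both strands were searched, and the 2 motifs do not overlap. CCAAT letters are in capitals in the sterol genes alone but occur in both groups. They stood 237, 176 and 45 bases before the start of Hmgcs1, 216 bases before that of Insig1, and 45 and 14 bases before that of Idi1. In lower case, they also stood 77 and 22 bases before the start of Mcm5 and 57 and 14 bases before that of Mcm6. The same letters were in 10248 of the 27025 promoters of the table (37.9%) and in 21 of the 33 DNA replication genes with a promoter (63.6%). Shares in this paragraph are over windows of 300 bases, which reach 50 bases past the start and so hold more than the sequences shown. The 27025 promoters take in genes that were not tested here. TTTCGCGC stood 153 bases before the start of Mcm5 and 106 bases before that of Mcm6, and in none of the 3 sterol sequences shown. It was in 86 of the 27025 promoters (0.318%), in 5 of the 33 DNA replication genes with a promoter in the table (15.2%), and in 4 of the 24 of these that fell (16.7%). A promoter was found for 17 of the 25 sterol genes (68.0%), too few for a share, so none is given. One was found for 10211 of the 14220 genes tested (71.8%), under 10209 symbols. Of these, 63 held TTTCGCGC (0.617%) and 3989 held the CCAAT letters (39.1%). TTTCGCGC was in 17 of 2524 promoters of genes that fell (0.674%) and in 10 of 2375 of genes that rose (0.421%). Tested genes without a promoter are left out of these shares. These matches describe letters in a window and are not binding sites.

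Total counts ran from 14790237 to 16835265 in flox/flox, from 15798246 to 22613401 in CreER-only and from 15368855 to 24736323 in flox/+ libraries. Levels below are CPM, counts scaled to the size of the library, in replicate order 1 to 4, and fold changes are log2 estimates with their standard error (SE). Mitochondrial transcripts took 2.64% to 3.38% of counts in flox/flox and 2.13% to 3.23% in CreER-only libraries (difference of means 0.239 percentage points, exact two-sided permutation p = 0.457, Benjamini-Hochberg p = 0.685 over 3 library measures, smallest p possible 0.0286). In a multidimensional scaling plot of the 12 libraries, the first dimension, with 52.73% of the variance, placed flox/flox at 1.67 to 1.79 and the other 8 libraries at -1.06 to -0.745. The second dimension (9.51%) placed flox/flox lines 1 and 2 at -0.838 and -0.48 and lines 3 and 4 at 0.789 and 0.488. CreER-only libraries were at -0.154 to 0.661 on it. The tests took the 4 lines of a group as independent. Of 10 pan-epithelial markers 4 rose and 2 fell (median 0.19), where 21.9% of all tested genes rose and 23.5% fell. Epcam, a surface adhesion protein of epithelia (1312 to 1379 CPM in CreER-only, 1370 to 1476 in flox/flox, adjusted p = 0.149), and Cdh1, or E-cadherin (adjusted p = 0.327), did not pass the edgeR test. Vil1, which bundles microvillar actin, fell (log2 fold change -0.66, adjusted p = 9.69e-05 by edgeR). The summed level of 12 immune markers was 1.259 to 2.072 CPM in flox/flox and 1.521 to 4.928 in CreER-only libraries, with 6 members at 0 in each group. That of 12 stromal and endothelial markers was 1.485 to 2.388 and 1.204 to 3.087, with 7 and 6 at 0. Their part in any result was not tested.

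Eif4g2 itself (chromosome 7, 111067750 to 111083030, minus strand, GRCm38) was measured at 1257, 1324, 1335 and 1283 CPM in the 4 CreER-only libraries and at 261, 269.8, 225 and 220.1 CPM in the 4 flox/flox libraries. The flox/+ libraries lay between them at 790.3, 802, 821 and 834 CPM, and none of the 3 groups overlapped. Transcript in flox/flox was 18.8% of the CreER-only mean (log2 fold change -2.41, SE 0.0684, adjusted p = 5.67e-12 by edgeR's quasi-likelihood test). In flox/+ it was 62.5% (log2 fold change -0.68, adjusted p = 0.000415). Reads from undeleted exons, from a truncated transcript and from cells that escaped deletion cannot be told apart in a count per gene, since the floxed exons are not given in the sources used here. Of the 51 tested genes within 5 Mb of Eif4g2, 9 rose and 10 fell (median -0.10).

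**Figure D1:**
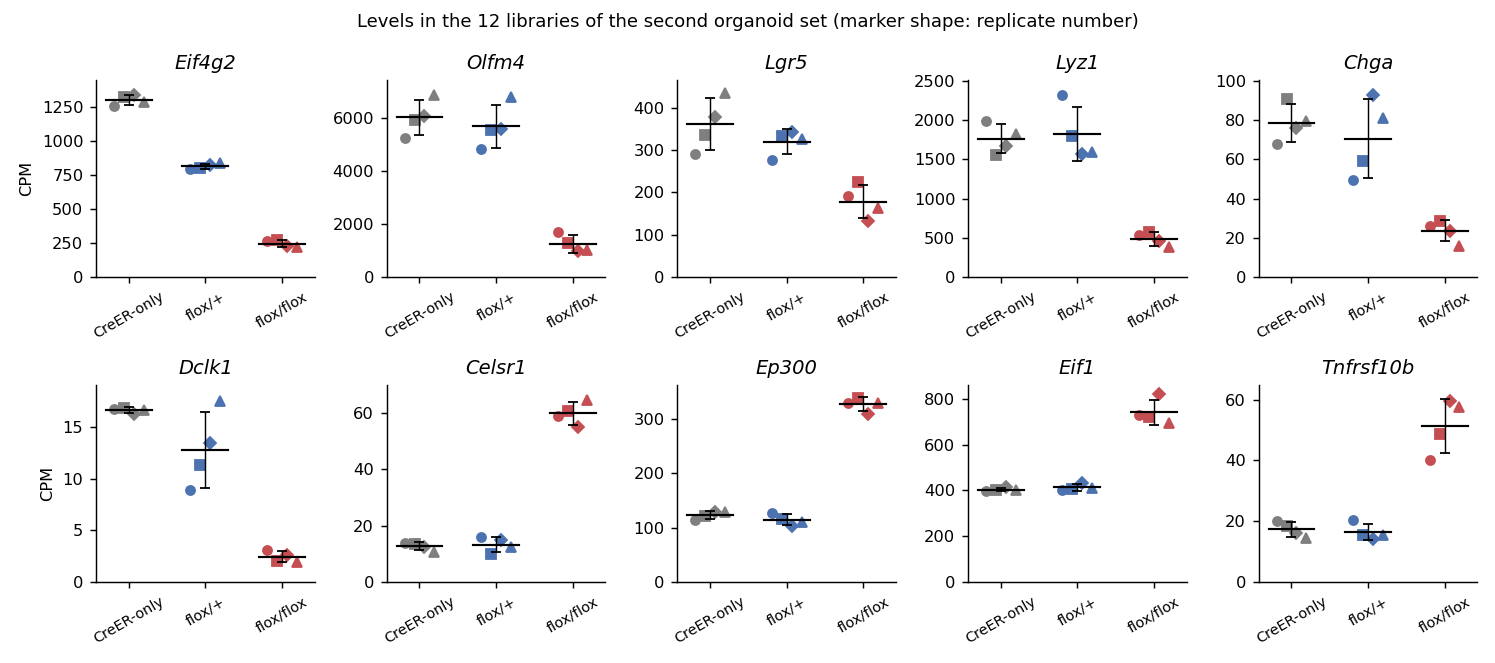
Levels of 10 genes in the 12 libraries of the set, on an axis of CPM that starts at 0 in each panel. Points are libraries, bars are group means and error bars are SD (n = 4). Flox/flox libraries lie apart from CreER-only libraries in all 10 panels, and Eif4g2 is the gene in which flox/+ lies between the other groups without overlap.

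Of 14220 genes tested, 6448 were called at an adjusted p under 0.05 (45.3%): 3112 rose (21.9%) and 3336 fell (23.5%). The larger changes were mostly falls, since 1523 called genes changed beyond 1 on the log2 scale (10.7%), 322 upward and 1201 downward. The median over all tested genes was -0.00, and 7398 genes had an unadjusted p under 0.05. Between flox/+ and CreER-only only 16 genes were called (0.113%), with 1481 at an unadjusted p under 0.05. That count was 148 by the DESeq2 Wald test, 60 without a filter on low counts, 4 with a replicate block and 1 to 32 with single libraries left out. Gene lists are read below against these shares. The 52 lists held 1017 tested genes, of which 197 rose and 363 fell.

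**Figure D2:**
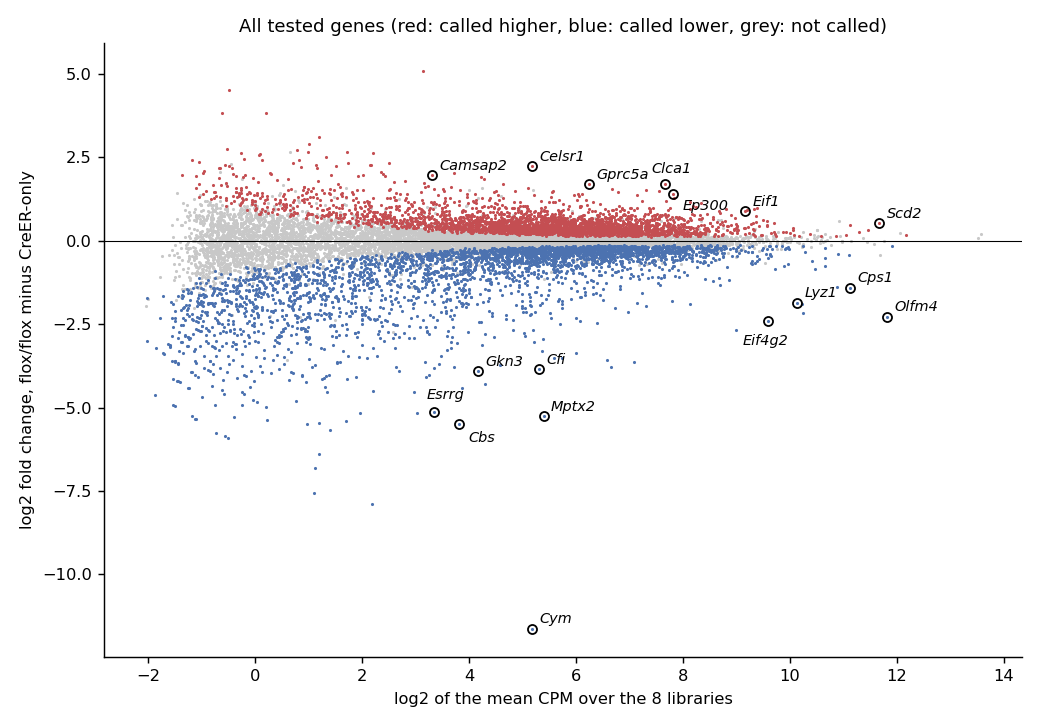
Log2 fold change of flox/flox over CreER-only organoids (vertical) against the log2 mean CPM of the 8 libraries (horizontal) for each tested gene, with called genes in colour and 14 genes without a read in 1 group left out. Most points beyond 1 on either side lie below 0, 1201 called genes against 322 above.

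Crypt stem cell genes fell almost as a group. Of 20 listed and tested, 18 fell and none rose, with a median of -1.03. Olfm4, a secreted glycoprotein that marks stem cells, had the largest loss in reads, from 5216, 5923, 6054 and 6837 CPM in CreER-only to 1682, 1294, 974 and 1017 CPM in flox/flox libraries. All 4 flox/flox libraries were far below the lowest CreER-only library (log2 fold change -2.27, SE 0.176, adjusted p = 1.75e-06). Lgr5, the R-spondin receptor that defines these cells, was at 291, 336, 379 and 436 CPM in CreER-only and 191, 224, 133 and 162 CPM in flox/flox organoids. The groups did not overlap, and flox/flox kept 49.3% of the CreER-only mean (log2 fold change -1.02, SE 0.160, adjusted p = 0.000335). Ascl2, the Wnt-dependent transcription factor of stem cells, ran from 13.4 to 21.9 CPM in CreER-only and 7.16 to 8.67 in flox/flox libraries (log2 fold change -1.11, SE 0.135, adjusted p = 1.12e-05). Kcnq1, a potassium channel subunit, and Soat1, which esterifies cholesterol, fell with little spread, Kcnq1 from 206 to 235 to 70.2 to 82.9 CPM (log2 fold change -1.55, SE 0.0644, adjusted p = 4.04e-10) and Soat1 from 140.4 to 193 to 38.1 to 44.9 CPM (log2 fold change -2.01, SE 0.0947, adjusted p = 1.11e-09).

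Slc14a1, a urea transporter on the stem cell list whose value was seen before it was chosen, had 3.94, 2.43, 2.31 and 2.73 CPM in CreER-only libraries and no read in any flox/flox library. With 212 reads against 0, it was at least 58.9-fold lower, counting 3 reads over the group as the floor. The list's median is -1.03 with or without this bound. Myb, a transcription factor of crypt progenitors, was the member with an estimate above 0, at 126, 146, 133 and 144 CPM in CreER-only and 186, 179, 111 and 128 in flox/flox, and did not pass the test (log2 fold change 0.14, SE 0.149, adjusted p = 0.481). In bulk libraries, fewer stem cells and less stem cell RNA per cell cannot be told apart, here or for the cell types that follow.

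Wnt targets and feedback genes fell more often than they rose. Of 16 tested, 2 rose and 9 fell (median -0.28), where 21.9% of all tested genes rose and 23.5% fell. Their summed level was 2453 to 2558 CPM in CreER-only and 2362 to 2494 in flox/flox organoids, which overlap. Nkd1, a Wnt feedback inhibitor, fell from 7.76, 10.1, 8.47 and 9.00 CPM to 1.6, 0.596, 0.772 and 0.298 CPM, with no overlap (log2 fold change -3.44, SE 0.331, adjusted p = 1.37e-06). Wnt3, the ligand made by Paneth cells, was at 9.24 to 12.4 CPM in CreER-only and 1.99 to 3.01 in flox/flox libraries (log2 fold change -2.09, SE 0.175, adjusted p = 3.3e-07). Axin2, a general feedback target, changed less, from 236 to 281 to 158 to 232 CPM (log2 fold change -0.38, SE 0.0938, adjusted p = 0.0042), and Rnf43, which removes Wnt receptors, from 165 to 184 to 104 to 122 CPM (log2 fold change -0.61, SE 0.0642, adjusted p = 2.95e-06). Tcf7l2, the main DNA-binding partner of β-catenin in this epithelium, rose from 46.9 to 58.5 to 69.4 to 81.3 CPM (log2 fold change 0.54, SE 0.0794, adjusted p = 7.17e-05).

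Cd44, an adhesion receptor and Wnt target, was the other riser on this list, but its libraries did not fall by genotype alone. It measured 37.9, 43.6, 37.6 and 118 CPM in CreER-only, 147, 183, 184 and 174 in flox/+ and 167, 182, 158 and 142 in flox/flox libraries. CreER-only libraries 1 to 3 were low and library 4 stood close to the flox/flox range (log2 fold change 1.46, SE 0.348, adjusted p = 0.00674). The flox/+ estimate was as large, at 1.55, without passing the test (adjusted p = 0.166).

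Notch pathway genes moved in both directions, with 3 of 14 tested rising and 6 falling (median -0.19). The receptor Notch1 fell from 42.7, 48.6, 47.7 and 52 CPM in CreER-only to 16, 17.5, 15 and 14.6 CPM in flox/flox libraries, with no overlap (log2 fold change -1.6, SE 0.104, adjusted p = 2.68e-08). Lfng, a glycosyltransferase that modifies Notch receptors, fell from 14.7 to 19.3 to 3.52 to 6.08 CPM (log2 fold change -1.82, SE 0.174, adjusted p = 1.15e-06), and Notch2 by less, with overlapping groups (log2 fold change -0.29, SE 0.0886, adjusted p = 0.0141). The ligands were divided. Dll4 fell from 8.91 to 13.3 to 3.94 to 5.49 CPM (log2 fold change -1.38, SE 0.149, adjusted p = 3.76e-06), and Dll1 was at 25.2 to 30.6 and 18.6 to 30.5 CPM (adjusted p = 0.629). Jag1 rose from 16 to 21.3 to 35.4 to 45.1 CPM (log2 fold change 0.99, SE 0.128, adjusted p = 2.08e-05) and Jag2 from 17.3 to 26.5 to 49.3 to 59.4 CPM (log2 fold change 1.38, SE 0.120, adjusted p = 4.64e-07).

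Paneth cell products fell steeply. Of 18 defensin genes tested, 14 fell and none rose (median -2.51), and their summed level dropped from 2949 to 4103 CPM in CreER-only to 596.1 to 771.6 CPM in flox/flox organoids. Of 13 other Paneth genes, 11 fell and none rose (median -1.6). Lyz1, the lysozyme of Paneth granules, was at 1992, 1562, 1678 and 1826 CPM in CreER-only and 529.5, 577, 464 and 378 CPM in flox/flox libraries, with no overlap (log2 fold change -1.86, SE 0.153, adjusted p = 1.94e-06). Defa30 fell from 762 to 1049 to 125 to 156 CPM (log2 fold change -2.66, SE 0.127, adjusted p = 7.18e-09), and Defa21 from 124 to 288 to 8.6 to 20.4 CPM (log2 fold change -3.78, SE 0.339, adjusted p = 1.35e-05). The defensin genes are near-identical copies, so how reads were divided among them is uncertain.

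Members of the Paneth lists did not move alike. Ang4, an antimicrobial ribonuclease, fell from 248 to 279 to 103 to 139 CPM (log2 fold change -1.12, SE 0.139, adjusted p = 4.67e-05), while Mmp7, the protease that matures defensins, went from 179 to 194 to 136 to 151 CPM (log2 fold change -0.37, SE 0.0840, adjusted p = 0.0023). Reg3b, an antimicrobial lectin also made by enterocytes, was at 203, 169, 156 and 163 CPM in CreER-only and 237, 187, 254 and 264 in flox/flox libraries, which overlap (adjusted p = 0.271). A single flox/flox line stood apart in 2 defensins of low level. Defa2 measured 0.468, 0.729, 0.535 and 13.4 CPM in flox/flox and 6.96, 2.29, 2.91 and 11 in CreER-only libraries, with an estimate of -0.57 (adjusted p = 0.711) that became -3.29 (adjusted p = 0.022) without line 4. Defa37 measured 0.401, 0.398, 0.772 and 11.1 and 2.22, 1.01, 2.87 and 1.9 CPM, and its estimate of 0.68 became -1.9 (adjusted p = 0.00615) without that line. Mptx2, a pentraxin of Paneth cells with a near-identical neighbour, fell from 76.1, 80.8, 94 and 76.5 CPM to 0.935, 2.98, 1.78 and 2.87 CPM (log2 fold change -5.25, SE 0.731, adjusted p = 0.000298), and in flox/+ ran from 20.6 to 143 CPM.

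Goblet cell genes fell by less. Of 19 tested, 1 rose and 12 fell (median -0.60), and the summed level was 2852 to 3568 CPM in CreER-only and 2139 to 2691 in flox/flox organoids. The main gel-forming mucin Muc2 went from 76.6, 80.8, 105 and 69 CPM in CreER-only to 59.1, 54.7, 52.3 and 47.8 CPM in flox/flox libraries. Each flox/flox library was below each CreER-only one (log2 fold change -0.64, SE 0.144, adjusted p = 0.0032). The trefoil peptide Tff3 (log2 fold change -0.49, SE 0.0719, adjusted p = 6.83e-05) and the secreted Spink4 (log2 fold change -1.1, SE 0.0792, adjusted p = 7.41e-08) fell likewise, and Creb3l4, a transcription factor of secretory cells, fell the furthest of those named, from 13.2 to 18.7 to 2.81 to 3.81 CPM (log2 fold change -2.21, SE 0.144, adjusted p = 2.83e-08). Spdef, which drives goblet and Paneth maturation, was at 14.9 to 17.2 CPM and 17.2 to 18.9 CPM (adjusted p = 0.208).

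Clca1, a secreted goblet cell metalloprotease, was the goblet gene that rose. Its levels were 124, 90.1, 108 and 62.6 CPM in CreER-only and 204, 280.4, 472 and 290.3 CPM in flox/flox organoids. All flox/flox libraries were above all CreER-only ones, with line 3 highest (log2 fold change 1.7, SE 0.322, adjusted p = 0.00188).

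Enteroendocrine and tuft cell genes fell nearly throughout. Of 20 enteroendocrine regulators and granule genes, 18 fell and none rose (median -1.5), and of 9 hormone genes tested, 6 fell and none rose (median -1.14). Neurog3, which commits progenitors to the endocrine fate, was at 5.54, 5.87, 4.07 and 6.97 CPM in CreER-only and 1.67, 2.92, 2.56 and 2.57 in flox/flox libraries (log2 fold change -1.2, SE 0.246, adjusted p = 0.00105). The granule protein Chga fell from 67.6, 90.9, 76 and 79.7 CPM to 26.1, 28.6, 23.6 and 16.1 CPM, with flox/flox line 4 the lowest and no overlap (log2 fold change -1.74, SE 0.223, adjusted p = 0.0001). Chgb fell from 534 to 633 to 207 to 263 CPM (log2 fold change -1.32, SE 0.0942, adjusted p = 7.62e-08) and Reg4, a lectin of endocrine and deep crypt cells, from 104 to 144 to 38.7 to 48.8 CPM (log2 fold change -1.61, SE 0.132, adjusted p = 1.2e-06).

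Among products of endocrine subtypes, the proglucagon gene Gcg had a log2 fold change of -1.88 (adjusted p = 0.00543), the tachykinin precursor Tac1 of -1.31 (adjusted p = 6.04e-06) and Tph1, which makes serotonin, of -1.52 (adjusted p = 1.05e-06). Of 16 tuft cell genes tested, 15 fell and none rose (median -2.36), with summed levels of 103.5 to 111.1 CPM in CreER-only and 33.33 to 47.65 CPM in flox/flox organoids. Dclk1, the kinase that marks tuft cells, was nearly constant in CreER-only libraries, at 16.8, 16.9, 16.3 and 16.7 CPM, and at 3.07, 1.99, 2.61 and 1.97 CPM in flox/flox (log2 fold change -2.79, SE 0.201, adjusted p = 7.62e-08). Pou2f3, the tuft cell master regulator (log2 fold change -2.3, SE 0.220, adjusted p = 1.17e-06), and Trpm5, their taste-pathway channel (log2 fold change -2.58, SE 0.197, adjusted p = 1.26e-07), fell with it.

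**Figure D3:**
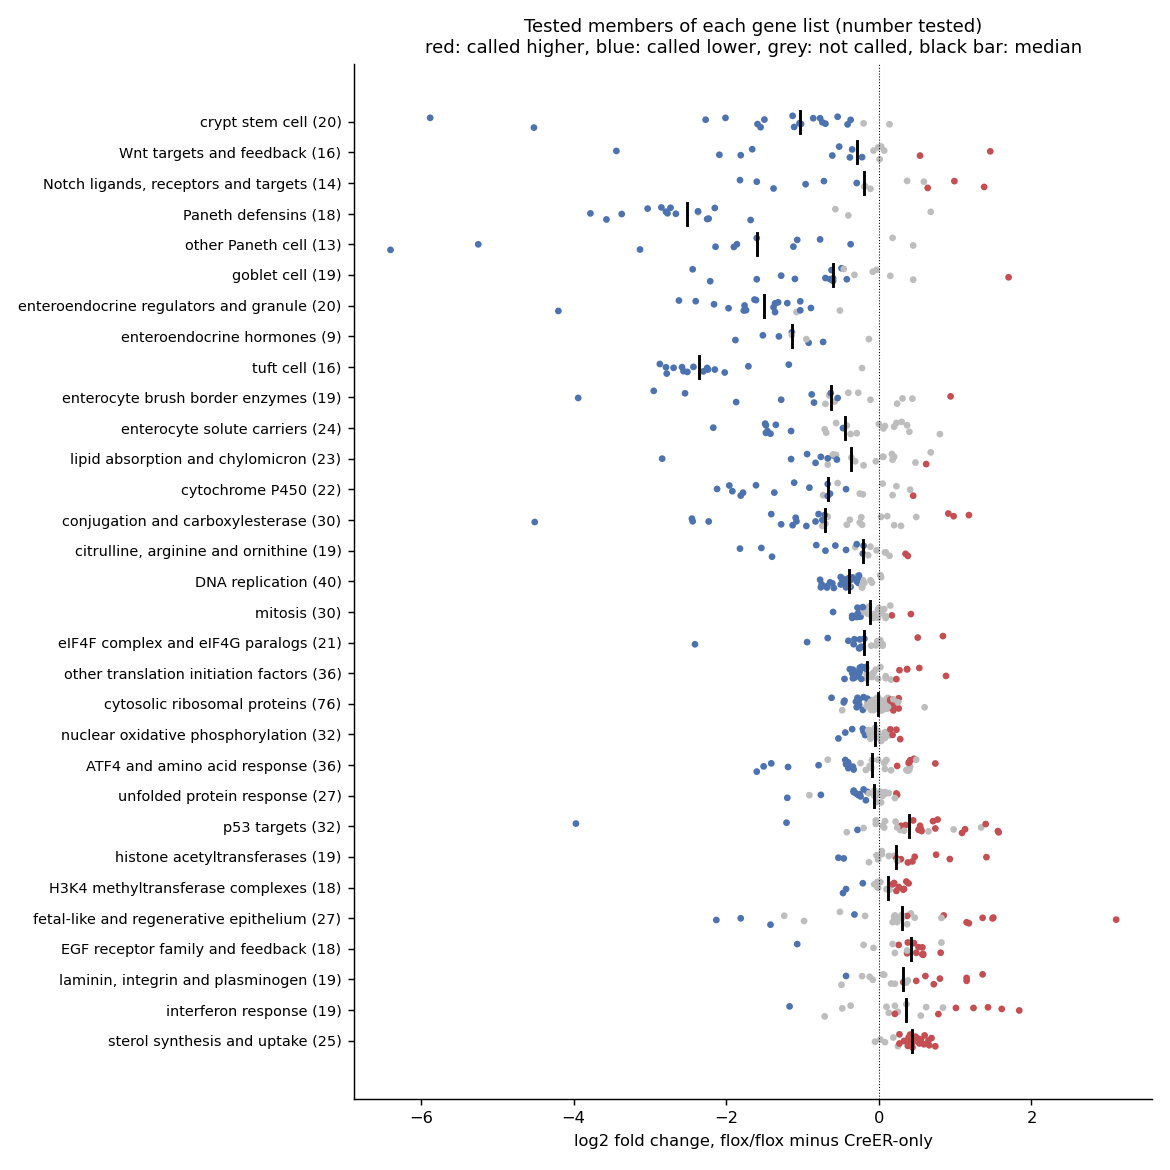
Log2 fold change of flox/flox over CreER-only for the tested members of 31 gene lists, 1 row a list. Dots are genes, red where called higher, blue where called lower and grey where not called, and black bars are list medians. The defensin (-2.51), tuft (-2.36), other Paneth (-1.6) and enteroendocrine (-1.5) medians lie furthest left, and the sterol synthesis median (0.43) lies to the right.

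More brush border enzymes of enterocytes fell than rose. Of 19 tested, 1 rose and 9 fell (median -0.63), where 23.5% of all tested genes fell. The count of falls was 6 without flox/flox line 1 and 7 with a replicate block. Their summed level was 5856 to 8509 CPM in CreER-only and 5780 to 8055 CPM in flox/flox organoids, which overlap. Lct, or lactase, fell from 61.7, 64.5, 113 and 56 CPM to 11.4, 9.27, 7.96 and 9.79 CPM, the furthest apart of the enzymes named (log2 fold change -2.95, SE 0.237, adjusted p = 2.89e-06). Dpp4, a dipeptidase, fell from 137 to 189 to 73.7 to 107 CPM (log2 fold change -0.85, SE 0.119, adjusted p = 8.82e-05). Vil1, counted above with the pan-epithelial markers and not on this list, fell from 657 to 824 to 439 to 560.4 CPM (log2 fold change -0.66, SE 0.0990, adjusted p = 9.69e-05). Sis, the sucrase-isomaltase, was at 3281, 2649, 4141 and 2643 CPM in CreER-only and 2275, 2618, 3271 and 3608 CPM in flox/flox libraries, with overlap (adjusted p = 0.759). Maoa, which degrades monoamines, rose from 396 to 556 to 678 to 1044 CPM (log2 fold change 0.94, SE 0.187, adjusted p = 0.00193).

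Transport and lipid handling genes also fell more often than they rose. Of 24 solute carriers 9 fell and none rose (median -0.45), where 23.5% of all tested genes fell. With single libraries left out 6 to 10 fell, fewest without CreER-only library 3, and 7 fell with a replicate block. The fructose transporter Slc2a5 fell from 78.3 to 143 to 25.1 to 41.9 CPM (log2 fold change -1.49, SE 0.238, adjusted p = 0.000543). Of 23 genes of lipid absorption 1 rose and 8 fell (median -0.36), and without CreER-only library 3 there were 5 that fell. Abca1, a cholesterol exporter, fell from 2.9, 4.5, 5.88 and 5.77 CPM to 0.802, 0.662, 0.713 and 0.477 CPM (log2 fold change -2.84, SE 0.356, adjusted p = 1.72e-05) and Plin2, which coats lipid droplets, from 75.9 to 96 to 42.1 to 51.5 CPM (log2 fold change -0.83, SE 0.114, adjusted p = 5.22e-05). Intestinal identity factors did not fall as a list, with 6 of 26 higher and 6 lower (median 0.03). Cdx2, which sets intestinal fate, was at 107 to 126 CPM in CreER-only and 106 to 124 in flox/flox libraries (adjusted p = 0.846). Hnf4a (log2 fold change 0.38, SE 0.0623, adjusted p = 0.000177) and Isx (log2 fold change 0.54, SE 0.0717, adjusted p = 2.64e-05) rose, and the epithelial factor Ehf (log2 fold change -0.34, SE 0.0614, adjusted p = 0.000356) and the bile acid receptor Nr1h4 (log2 fold change -0.83, SE 0.143, adjusted p = 0.000263) fell.

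Genes of citrulline and ornithine synthesis, a metabolic task of the small intestine, were among the lower ones, with 10 of 19 falling and 2 rising (median -0.21). Cps1, the mitochondrial carbamoyl phosphate synthetase, fell from 2525, 3165, 3463 and 3759 CPM to 1640, 1505, 749 and 1010 CPM. Flox/flox lines 3 and 4 were lower than lines 1 and 2, and all 4 were below CreER-only (log2 fold change -1.4, SE 0.229, adjusted p = 0.000648). Oat, which interconverts ornithine and proline precursors, fell from 1091 to 1392 to 733 to 785 CPM (log2 fold change -0.70, SE 0.0700, adjusted p = 1.67e-06), and Otc, which makes citrulline, from 98.5 to 115 to 74.8 to 84.7 CPM (log2 fold change -0.43, SE 0.0702, adjusted p = 0.000169). Odc1, the first enzyme of polyamine synthesis, rose from 245 to 290.3 to 305 to 379 CPM (log2 fold change 0.35, SE 0.0707, adjusted p = 0.000991).

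Xenobiotic and redox enzymes were also lower. Of 22 cytochrome P450 genes 1 rose and 13 fell (median -0.67), of 30 conjugation and carboxylesterase genes 3 rose and 14 fell (median -0.70), and of 19 NRF2 targets and partners 2 rose and 12 fell (median -0.24). Cyp2c29, a P450 with close paralogs, went from 98.6, 119.9, 126 and 90.5 CPM in CreER-only through 69.5, 67.2, 61 and 58.5 in flox/+ to 36.6, 37.8, 37.2 and 31.1 in flox/flox libraries (log2 fold change -1.61, SE 0.105, adjusted p = 3.71e-08). Nqo1, a classical NRF2 target, fell from 46.3 to 77.4 to 28.9 to 39.3 CPM (log2 fold change -0.85, SE 0.154, adjusted p = 0.000699), while Nfe2l2, the gene of NRF2 itself, rose from 160.4 to 226 to 246 to 390.2 CPM (log2 fold change 0.66, SE 0.162, adjusted p = 0.00656). Of 21 retinoid genes 2 rose and 9 fell (median -0.48), and of 11 aldo-keto reductases 5 fell and none rose (median -0.20). Akr1c14, a reductase of steroids in a family of close copies, fell from 29.8, 30.7, 47.4 and 41.6 CPM to 0.802, 1.66, 2.02 and 3.04 CPM (log2 fold change -4.29, SE 0.277, adjusted p = 3.29e-07).

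DNA replication genes fell together by small amounts. Of 40 listed and tested, 29 fell and none rose (median -0.39), and the summed level was 4005 to 4523 CPM in CreER-only and 2863 to 3590 CPM in flox/flox organoids. Mcm2, a subunit of the replicative helicase, was at 199.5, 217, 194 and 226 CPM in CreER-only and 154, 132, 116 and 137 CPM in flox/flox libraries, with no overlap (log2 fold change -0.64, SE 0.0768, adjusted p = 1.1e-05). Mcm5 and Mcm6, the helicase subunits whose upstream sequences are shown above, went from 215 to 248 to 138 to 194 CPM (log2 fold change -0.48, SE 0.0930, adjusted p = 0.000766) and from 283 to 325 to 206 to 252 CPM (log2 fold change -0.44, SE 0.0732, adjusted p = 0.000197). Tyms, the thymidylate synthase, fell from 63.3 to 76.2 to 39.6 to 51.4 CPM (log2 fold change -0.68, SE 0.0820, adjusted p = 1.15e-05). Lines 3 and 4 were below lines 1 and 2 in Mcm5, Mcm6 and Tyms.

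Mitotic genes moved less, with 2 of 30 rising and 10 falling (median -0.11), or 6 falling without CreER-only library 2. Cdk1, the mitotic kinase, was at 92.2 to 116 CPM and 100.1 to 113 CPM (adjusted p = 0.426). Mki67, the general marker of cycling cells, overlapped between groups, at 456, 511, 543 and 532 CPM in CreER-only and 502, 465, 365 and 392 CPM in flox/flox libraries. Its estimate of -0.24 (adjusted p = 0.0383) ranged from -0.33 to -0.17 with single libraries left out, and did not pass without CreER-only library 2, 3 or 4 or flox/flox line 3 or 4 (largest adjusted p 0.116). Ttk, a spindle checkpoint kinase, fell (log2 fold change -0.60, SE 0.0983, adjusted p = 0.000176), and Anln, an actin-binding protein of the cleavage furrow, rose (log2 fold change 0.42, SE 0.0622, adjusted p = 6.57e-05).

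Among translation factors, the other members of the eIF4G family did not share the loss of Eif4g2. Eif4g3 rose from 108, 99.2, 102 and 99.5 CPM to 148, 144, 138 and 151 CPM, with no overlap (log2 fold change 0.51, SE 0.0512, adjusted p = 1.92e-06), and Eif4g1, the main scaffold of cap-dependent initiation, fell from 1028 to 1123 to 841 to 995 CPM (log2 fold change -0.23, SE 0.0554, adjusted p = 0.00311). Of 21 genes of the eIF4F group and its regulators, 2 rose and 11 fell (median -0.19). The other riser was Eif4a2, an eIF4A helicase, from 281, 271, 319.9 and 314 CPM to 462, 549, 566 and 540.2 CPM (log2 fold change 0.84, SE 0.0744, adjusted p = 5.74e-07). Pdcd4, an inhibitor of eIF4A, fell from 139.9 to 144 to 82.3 to 93.9 CPM (log2 fold change -0.67, SE 0.0508, adjusted p = 1.15e-07).

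Of 36 other initiation factors 6 rose and 17 fell (median -0.16). The start-site selection factor Eif1 rose from 398, 402, 414 and 404 CPM to 729.8, 723, 822 and 697 CPM, every flox/flox library far above every CreER-only one (log2 fold change 0.88, SE 0.0561, adjusted p = 2.39e-08). Its partner Eif5, which triggers GTP hydrolysis at the start codon, rose from 647 to 714 to 965 to 1023 CPM (log2 fold change 0.53, SE 0.0502, adjusted p = 1.02e-06). Ribosomal protein mRNAs as a list stayed near 0, with 10 of 76 higher and 12 lower (median -0.01), counts that ranged from 4 to 13 and from 6 to 16 with single libraries left out. Rpl38, a large subunit protein, fell (log2 fold change -0.62, SE 0.106, adjusted p = 0.000324) and Rplp0, of the ribosomal stalk, rose (log2 fold change 0.26, SE 0.0518, adjusted p = 0.000826). None of the 13 mRNAs of the mitochondrial genome was called (median 0.18), and of 32 nuclear genes of oxidative phosphorylation 4 rose and 7 fell (median -0.05).

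Of 9 mRNAs that earlier work has reported as depending on eIF4G2 for translation, 4 rose and 2 fell (median 0.10) in transcript level, which does not measure translation. Apaf1, the caspase-9 scaffold, rose from 59 to 74.9 to 111 to 125 CPM (log2 fold change 0.71, SE 0.0728, adjusted p = 2.12e-06) and Xiap, a caspase inhibitor, from 143 to 170.4 to 195 to 231 CPM (log2 fold change 0.49, SE 0.0654, adjusted p = 3.11e-05). Hmgn3, a nucleosome-binding protein, fell from 2.54 to 4.05 to 0.861 to 2.08 CPM (log2 fold change -1.28, SE 0.280, adjusted p = 0.00172).

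Of 32 p53 targets 15 rose, where 21.9% of all tested genes did, and 3 fell (median 0.40). Tnfrsf10b, the TRAIL death receptor, rose from 20.1, 18.5, 16.1 and 14.5 CPM in CreER-only to 40.2, 48.6, 59.5 and 57.4 CPM in flox/flox libraries, with no overlap (log2 fold change 1.57, SE 0.143, adjusted p = 1.19e-06). Ccng1 (cyclin G1) rose from 139 to 269.5 to 363 to 527 CPM (log2 fold change 1.13, SE 0.206, adjusted p = 0.00122), the desmosomal protein Perp from 152 to 206 to 270.0 to 319 CPM (log2 fold change 0.71, SE 0.0803, adjusted p = 5.83e-06), and Mdm2, the ligase that degrades p53, from 62.4 to 72.6 to 82.5 to 121 CPM (log2 fold change 0.56, SE 0.120, adjusted p = 0.00186). Cdkn1a, the cell cycle inhibitor p21, was at 108, 77.9, 117 and 88.4 CPM in CreER-only and 101, 135, 160.1 and 165 CPM in flox/flox libraries, which overlap. Its estimate (log2 fold change 0.52, SE 0.176, adjusted p = 0.0325) passed the threshold but lost it when CreER-only library 2 or 4 or flox/flox line 2, 3 or 4 was left out, with a range of 0.43 to 0.65.

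Btg2, an antiproliferative p53 target, went the other way, from 53.2, 43.8, 48.2 and 44 CPM to 16.6, 18.8, 23.1 and 23.2 CPM (log2 fold change -1.21, SE 0.112, adjusted p = 8.13e-07). Ak1, an adenylate kinase on the same list, fell from 2.59, 2.07, 2.22 and 2.35 CPM to 0.0668, 0, 0.178 and 0.298 CPM, with no read in line 2 (log2 fold change -3.97, SE 0.455, adjusted p = 6.69e-06). Without line 4 its estimate was -4.65.

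Genes of the ATF4 response were divided, with 6 of 36 rising and 13 falling (median -0.09). Atf4 itself rose from 218, 215, 248 and 234 CPM to 317, 321, 288 and 286 CPM, with no overlap (log2 fold change 0.41, SE 0.0691, adjusted p = 0.000237). Cebpg, its dimer partner, rose from 74.5 to 82.3 to 101 to 103 CPM (log2 fold change 0.40, SE 0.0499, adjusted p = 1.4e-05). Cth, which makes cysteine, fell from 78.7 to 97.8 to 26.1 to 35.7 CPM (log2 fold change -1.41, SE 0.101, adjusted p = 7.62e-08), and the stress-response coactivator Nupr1 from 27.2 to 28.6 to 8.3 to 10.1 CPM (log2 fold change -1.6, SE 0.107, adjusted p = 3.71e-08). Of 27 genes of the unfolded protein response 2 rose and 11 fell (median -0.06), or 7 fell without CreER-only library 2. The endoplasmic reticulum chaperone Hspa5 was at 891 to 989.9 and 918 to 1030 CPM (adjusted p = 0.249), while Herpud1, of the degradation machinery, fell (log2 fold change -0.76, SE 0.0690, adjusted p = 6.65e-07), as did the cochaperone Sdf2l1 (log2 fold change -1.2, SE 0.136, adjusted p = 8.01e-06).

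Histone acetyltransferase genes rose more often than they fell, 9 and 2 of 19 (median 0.23). Ep300, the gene of p300, was the most changed of them, from 114, 122, 128 and 129.5 CPM in CreER-only to 329.8, 339, 309 and 331 CPM in flox/flox libraries. The 4 flox/flox libraries lay within a narrow band at 265% of the CreER-only mean (log2 fold change 1.41, SE 0.0663, adjusted p = 9.97e-10). Its paralog Crebbp, the gene of CBP, rose from 67.8, 70.5, 77.6 and 69 CPM to 137, 132, 132 and 142 CPM, also without overlap (log2 fold change 0.93, SE 0.0639, adjusted p = 4.88e-08). The H4K16 acetyltransferase Kat8 fell from 21.8 to 24.4 to 14.2 to 17.4 CPM (log2 fold change -0.53, SE 0.0851, adjusted p = 0.00014), and Hat1, which acetylates newly made histones, from 87.7 to 95.4 to 59 to 77.4 CPM (log2 fold change -0.46, SE 0.0856, adjusted p = 0.000478).

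Other chromatin lists differed. Rises outnumbered falls in the H3K4 methyltransferase complexes and the other lysine methyltransferases and demethylases, where 21.9% of all tested genes rose. The Polycomb and deacetylase lists had medians of -0.02 and -0.01. In the H3K4 methyltransferase complexes 8 of 18 rose and 3 fell (median 0.12). Hcfc1, a subunit of some of these complexes, rose (log2 fold change 0.39, SE 0.0781, adjusted p = 0.00094), and the methyltransferase Kmt2a (log2 fold change -0.43, SE 0.0906, adjusted p = 0.00132) and the core subunit Ash2l (log2 fold change -0.47, SE 0.0520, adjusted p = 4.77e-06) fell. Of 27 other lysine methyltransferases and demethylases 12 rose and 2 fell (median 0.15), among them the H3K36 demethylase Kdm2a, from 159 to 172 to 214 to 248 CPM (log2 fold change 0.49, SE 0.0523, adjusted p = 3.69e-06). Of 23 Polycomb and DNA methylation genes 4 rose and 8 fell (median -0.02). Bmi1, of Polycomb complex PRC1, rose (log2 fold change 0.56, SE 0.0754, adjusted p = 3.18e-05), and Phf19, an accessory factor of PRC2, fell from 11.6 to 13.5 to 3.14 to 5.5 CPM (log2 fold change -1.67, SE 0.166, adjusted p = 1.68e-06). Of 17 histone deacetylase genes 4 rose and 3 fell (median -0.01), with Hdac4 higher (log2 fold change 0.56, SE 0.0709, adjusted p = 1.7e-05) and Hdac11 lower (log2 fold change -1.02, SE 0.0833, adjusted p = 2.38e-07).

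Sterol synthesis and uptake genes rose as a list, in 20 of 25, and none fell (median 0.43). With single libraries left out 15 to 21 rose, fewest without CreER-only library 1, and 16 rose with a replicate block. Summed, they went from 6191 to 8234 CPM in CreER-only to 7815 to 10930 CPM in flox/flox organoids, which overlap. Hmgcs1, a synthase early in the pathway, was at 589, 524, 737 and 576 CPM in CreER-only and 893, 1033, 834 and 903 CPM in flox/flox libraries. Each flox/flox library was above each CreER-only one (log2 fold change 0.59, SE 0.0957, adjusted p = 0.000161), and flox/+ libraries were at 614 to 726 CPM. Its upstream sequence is shown above with 3 matches.

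Of the later steps, the sterol reductase Tm7sf2 rose from 61.1 to 83 to 101 to 127 CPM (log2 fold change 0.69, SE 0.0976, adjusted p = 5.59e-05). Insig1, which retains the sterol-sensing SREBP complex in the endoplasmic reticulum, overlapped between groups, at 392, 373, 558 and 432 CPM and 593, 738, 441 and 609.7 CPM. Its estimate (log2 fold change 0.44, SE 0.165, adjusted p = 0.0483) ranged from 0.32 to 0.58 with single libraries left out, and did not pass without CreER-only library 1, 2 or 4 or flox/flox line 1, 2 or 4 (largest adjusted p 0.128). Idi1, an isomerase of the isoprenoid steps (log2 fold change 0.39, SE 0.101, adjusted p = 0.00632), and the demethylase Cyp51 (log2 fold change 0.45, SE 0.145, adjusted p = 0.0251) also overlapped, with flox/flox line 3 the lowest of its group in both. The Cyp51 estimate did not pass without the same 6 libraries in turn (0.36 to 0.60). Dhcr7, the last reductase of the pathway, did not pass (log2 fold change -0.05, SE 0.141, adjusted p = 0.782). Of 15 fatty acid synthesis genes 5 rose and 4 fell (median 0.24), or 3 rose without CreER-only library 1, and Fads1, a desaturase of polyunsaturated fatty acids, fell from 203 to 299 to 102 to 169.8 CPM (log2 fold change -0.84, SE 0.159, adjusted p = 0.00118).

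**Figure D4:**
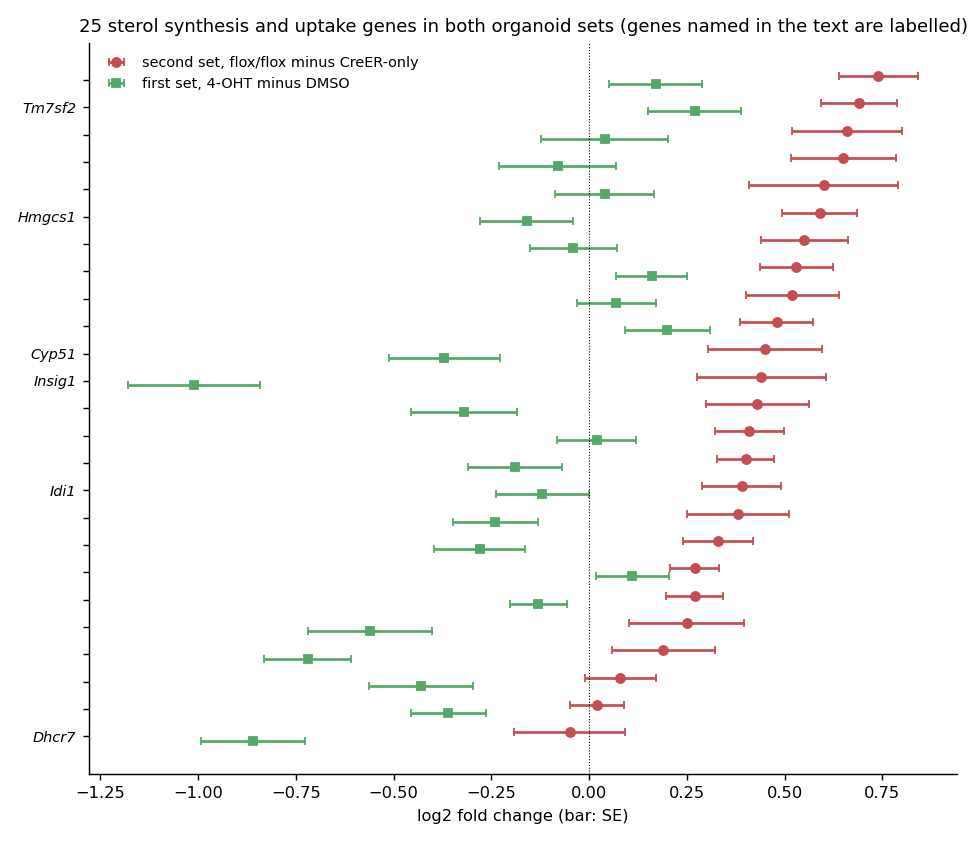
Log2 fold change with SE of the 25 sterol genes, in flox/flox over CreER-only organoids (circles) and in the first organoid set, 4-OHT over DMSO (squares). In the second set 20 are called higher (median 0.43), and in the first 6 are called lower (median -0.13).

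Genes of fetal-like and regenerating epithelium did not move as a list. Of 27 tested, 8 rose and 4 fell (median 0.30), and only 3 rose without CreER-only library 2. Defining members went in opposite directions or differed between lines. Clu, or clusterin, fell from 519, 454, 245 and 159 CPM in CreER-only to 51.4, 59.1, 192 and 89.7 CPM in flox/flox libraries. The CreER-only libraries themselves were spread widely, and the groups overlapped (log2 fold change -1.81, SE 0.498, adjusted p = 0.0146). Ly6a, the gene of Sca-1, was at 22.4, 18.6, 15.2 and 16.3 CPM in CreER-only and 1.2, 3.64, 18.4 and 13 CPM in flox/flox libraries (adjusted p = 0.207). Flox/flox lines 1 and 2 were below the CreER-only range and lines 3 and 4 in or near it. Without line 3 the estimate went from -0.98 to -1.58 (adjusted p = 0.0597).

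S100a6, a calcium-binding protein of this state, measured 186, 107, 66.9 and 31 CPM in CreER-only and 158, 214, 390.0 and 344 CPM in flox/flox libraries, which overlap. It passed the test (log2 fold change 1.5, SE 0.490, adjusted p = 0.0314) but not without CreER-only library 2 or 3 or flox/flox line 3 or 4 (1.21 to 2.01 over all libraries left out, largest adjusted p 0.0822). Alpi, the intestinal alkaline phosphatase of enterocytes, was also lower in lines 1 and 2 than in lines 3 and 4, at 77.5, 97.4, 225 and 361 CPM, against 343, 348, 409.8 and 139 CPM in CreER-only (adjusted p = 0.341).

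**Figure D5:**
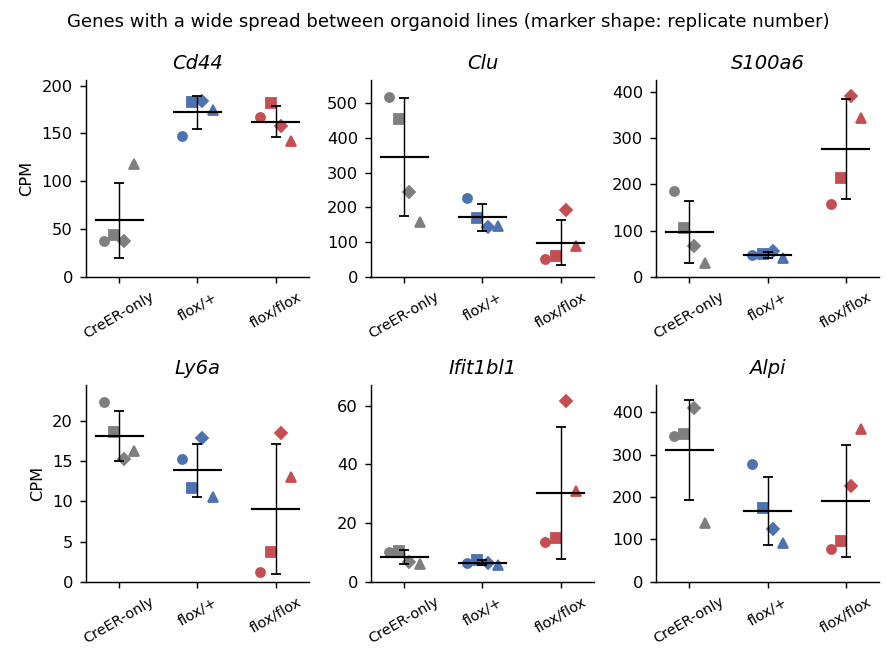
Levels in CPM of 6 genes, 1 point a library, in CreER-only, flox/+ and flox/flox organoids, to show spread between lines of 1 genotype. Flox/flox lines 1 and 2 lie below lines 3 and 4 in Clu, S100a6, Ly6a, Ifit1bl1 and Alpi, and CreER-only library 4 lies apart from libraries 1 to 3 in Cd44.

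F3, or tissue factor, which starts blood clotting, rose from 30.4, 23.8, 23.9 and 22.2 CPM to 42.4, 81, 90.8 and 66.6 CPM, with no overlap (log2 fold change 1.49, SE 0.202, adjusted p = 0.000114). Of 19 tested genes of laminins, integrins, the plasminogen system and nearby functions, 8 rose and 1 fell (median 0.32), with Lamc1 rising from 107 to 116 to 151 to 158 CPM (log2 fold change 0.49, SE 0.0538, adjusted p = 4.53e-06) and the integrin Itgav from 31.2 to 44.4 to 63.1 to 67.5 CPM (log2 fold change 0.80, SE 0.0873, adjusted p = 4.04e-06).

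YAP and TEAD genes rose in 8 of 20 and fell in 2 (median 0.27). Yap1, the coactivator restrained by Hippo signalling, rose from 173 to 184 to 232 to 258 CPM (log2 fold change 0.49, SE 0.0501, adjusted p = 2.27e-06). Its DNA-binding partners differed. Tead1 rose from 83.2, 83, 79.8 and 85.9 CPM to 166, 160.4, 153 and 145 CPM (log2 fold change 0.91, SE 0.0620, adjusted p = 4.26e-08), while Tead2 fell from 20.9, 22.4, 21.3 and 21.4 CPM to 4.41, 4.37, 4.81 and 4.89 CPM (log2 fold change -2.21, SE 0.164, adjusted p = 9.79e-08), each without overlap. Tead4 rose from 3.48 to 6.1 to 8.02 to 21.9 CPM (log2 fold change 1.6, SE 0.294, adjusted p = 0.000623), and the Hippo activator Nf2 fell from 139.7 to 150.4 to 78.1 to 90.7 CPM (log2 fold change -0.77, SE 0.0560, adjusted p = 7.62e-08).

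The EGF receptor family and its feedback genes rose in 11 of 18, where 21.9% of all tested genes rose, and fell in 1 (median 0.42). Erbb2, a coreceptor, rose from 134 to 142 to 161 to 226 CPM (log2 fold change 0.46, SE 0.0977, adjusted p = 0.00166), the ERK-responsive factor Etv5 from 28.8 to 34.7 to 52.4 to 59.6 CPM (log2 fold change 0.81, SE 0.0820, adjusted p = 1.93e-06) and the feedback inhibitor Spry2 from 20.2 to 23.8 to 31.3 to 34.5 CPM (log2 fold change 0.58, SE 0.0815, adjusted p = 4.66e-05). Egfr itself was at 70.5 to 84.1 and 69.2 to 76.8 CPM (adjusted p = 0.382). Interferon response genes rose in 7 of 19 and fell in 1 (median 0.36), and 4 rose without flox/flox line 4. Ifit1bl1, an interferon-induced gene, went from 10.3, 10.6, 6.8 and 5.96 CPM to 13.5, 14.8, 61.6 and 31 CPM, highest in line 3 (log2 fold change 1.84, SE 0.461, adjusted p = 0.00826). Without that line the estimate was 1.23 (adjusted p = 0.00563).

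The largest falls among genes that passed the level and overlap filter included enzymes of digestion and metabolism. Cym, the milk-clotting protease chymosin, was at 73.4, 98.8, 82.1 and 34.1 CPM in CreER-only and 9.31, 20.6, 7.63 and 3.78 CPM in flox/+ libraries, and had 1 read in the 4 flox/flox libraries together against 5742 in CreER-only. The single read was in line 2. The level was 0.0209% of that in CreER-only (95% exact interval 0.000529% to 0.116%, counting error only). Cbs, which starts the conversion of homocysteine to cysteine, fell from 29.8, 28.6, 21 and 30.3 CPM to 0.334, 1.06, 0.356 and 0.657 CPM (log2 fold change -5.5, SE 0.234, adjusted p = 5.37e-10). Esrrg, an orphan nuclear receptor, fell from 13.2 to 27.2 to 0.238 to 0.869 CPM (log2 fold change -5.13, SE 0.353, adjusted p = 3.24e-07).

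Other steep falls were of Gkn3, a gastrokine, from 33.3, 36.9, 31.9 and 32.7 CPM to 2.00, 2.52, 2.02 and 2.39 CPM, which were tight in both groups (log2 fold change -3.91, SE 0.109, adjusted p = 5.67e-12). Cfi, the complement factor I protease, fell from 65.5 to 83.8 to 4.54 to 6.57 CPM (log2 fold change -3.85, SE 0.132, adjusted p = 6.32e-11), Pla2g5, a secreted phospholipase, from 13.9 to 21.5 to 0.535 to 1.47 CPM (log2 fold change -4.09, SE 0.223, adjusted p = 5.29e-09), the serine protease gene Prss12 from 12.3 to 25.6 to 0.475 to 2.00 CPM (log2 fold change -4.02, SE 0.353, adjusted p = 3.25e-06), and Adcy1, an adenylate cyclase, from 17.8 to 21.3 to 0.653 to 2.27 CPM (log2 fold change -3.81, SE 0.235, adjusted p = 1.76e-08).

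The largest rises under the same filter were smaller than the largest falls. Celsr1, a cadherin of planar cell polarity, rose from 13.7, 13.5, 12.4 and 10.8 CPM in CreER-only to 58.9, 60.8, 55.1 and 64.7 CPM in flox/flox libraries, at 474% of the CreER-only mean (log2 fold change 2.24, SE 0.125, adjusted p = 5.29e-09). Camsap2, which binds microtubule minus ends, rose from 4.68, 3.92, 4.3 and 3.29 CPM to 14, 15.6, 19.1 and 14.4 CPM (log2 fold change 1.96, SE 0.177, adjusted p = 6.47e-07). Neither overlapped between groups. Hs3st1, a heparan sulfate sulfotransferase, was at 6.78 to 9.61 and 19.1 to 42.4 CPM (log2 fold change 1.91, SE 0.230, adjusted p = 2.73e-05), the cytokine Tgfb1 at 2.91 to 5.09 and 12.5 to 15.9 CPM (log2 fold change 1.72, SE 0.170, adjusted p = 1.59e-06), the receptor Gprc5a at 27.9 to 48.5 and 72.8 to 150.2 CPM (log2 fold change 1.69, SE 0.238, adjusted p = 0.000217) and Ap1s2, a clathrin adaptor subunit, at 5.03 to 7.12 and 16.4 to 23.8 CPM (log2 fold change 1.6, SE 0.149, adjusted p = 9.36e-07). Clca4a, a relative of Clca1 in a cluster of close copies (log2 fold change 2.04, SE 0.446, adjusted p = 0.00361), and the TNF-family ligand Tnfsf15 (log2 fold change 1.65, SE 0.326, adjusted p = 0.00129) also belonged to this group. So did Clca1, Tead4, Tnfrsf10b and Ifit1bl1, given above with their lists.

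The flox/+ organoids, which share the CreER-only libraries as controls, called 16 genes, so each comparison's own values are given. Gkn3 was at 20.4 to 24 CPM in flox/+ (log2 fold change -0.57, adjusted p = 0.02, against -3.91 in flox/flox), and Cfi at 38.9 to 51.4 CPM (-0.65, adjusted p = 0.0297, against -3.85). For Cyp2c29 the flox/+ value was -0.77 (adjusted p = 0.0146), against -1.61. Lamc1 went the other way from flox/flox, at -0.31 (adjusted p = 0.0452), against 0.49. A pair chosen after their values were seen also stood out. Slc16a9, a monocarboxylate transporter family member, was at 1.84 to 3.00 CPM in CreER-only, 0.0402 to 0.198 in flox/+ and 0.0663 to 0.895 in flox/flox libraries, lower in flox/+ (-4.08, adjusted p = 0.02) and in flox/flox (-2.33, adjusted p = 0.00156). Ceacam10 was higher in flox/+ at 9.11 to 23.9 CPM (2.08, adjusted p = 0.02) and lower in flox/flox at 0.358 to 1.07 CPM (-2.18, adjusted p = 0.000295), with CreER-only at 3.15 to 3.87 CPM. Most of these calls rested on single libraries. With each of 8 libraries left out in turn, the call of Lamc1 was lost in 7 cases, those of Gkn3, Cfi and Slc16a9 in 6, that of Ceacam10 in 4 and that of Cyp2c29 in 3, and all 6 were lost without CreER-only library 3. The fall of Eif4g2 passed in each case. Over the lists, the flox/+ medians of the stem cell and sterol genes were -0.05 and 0.11.

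The first organoid set asks the same question in another way and shares no library with the second. In it 3 other flox/flox lines (S6070, S6072 and S2080) received 4-OHT or DMSO, also in ENR with collection on day 6, so the controls were the same lines without the drug. Eif4g2 was at 755, 705 and 794 CPM with DMSO and 144, 148 and 144 CPM with 4-OHT (log2 fold change -2.37, adjusted p = 6.14e-05), against -2.41 in the second set. All second-set libraries carried Y-linked transcripts, while in the first set lines 1 and 2 carried Xist and line 3 Y-linked transcripts. Sex, line, and the control with or without 4-OHT therefore cannot be told apart from the set.

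In the first set 5422 of 15297 genes were called (35.4%). Among 13981 genes tested in both, 6312 were called in the second set (45.1%) and 5118 in the first (36.6%), and 3442 in both. Those are 54.5% of the second set's calls and 67.3% of the first's. Of the 3442, 3378 (98.1%) had the same direction and 64 the opposite. In a fit of both sets the effects differed in 1289 of 15511 genes (8.31%), a count that ran from 483 to 1827 with single libraries left out, lowest without the 4-OHT library of line 1 in the first set. That fit takes no account of the lines shared by the DMSO and 4-OHT libraries of the first set. With those lines as a replicate block, added after the data were seen, 1723 genes differed, 1277 of them among the 1289.

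Medians of the lineage lists were further from 0 in the first set. They were -1.54 for stem cell, -3.21 for defensin, -2.56 for other Paneth, -1.4 for goblet, -2.16 for enteroendocrine and -2.72 for tuft genes, against -1.03, -2.51, -1.6, -0.60, -1.5 and -2.36 in the second. For 3 lists the members differed. The first-set medians were over 19 stem cell, 16 defensin and 14 tuft genes, the second-set medians over 20, 18 and 16. The difference between sets was called in 13 of the 20 stem cell genes, 10 higher in the second set and 3 lower (7 and 1 without the 4-OHT library of first-set line 1). It was called in fewer members of the other lists, 6 of 19 goblet and 4 of 13 other Paneth genes, each higher in the second set, 1 of 20 enteroendocrine regulators and granule genes, 2 of 16 tuft genes, both lower in the second set, and none of 18 defensins by edgeR. Counted over all 20 listed goblet and 15 other Paneth genes, 4 goblet genes and 1 other Paneth gene passed without that same library. Over these same genes, with the lines as a block, 9 goblet genes were higher in the second set. Of the other Paneth genes 6 were then higher and 1 lower. These counts are therefore not over the same members as the 6 of 19 and 4 of 13. Olfm4 fell by 4.32 in the first set, from 645, 594 and 1096 CPM to 25.7, 39 and 51.8 CPM, and by 2.27 in the second (difference 2.08, SE 0.353, adjusted p = 0.00305). Lgr5 had -2.57 in the first set and -1.02 in the second (difference 1.58, adjusted p = 0.0146), a call lost without the 4-OHT library of first-set line 1. Ascl2 (1.02, adjusted p = 0.00838) and Lfng (2.02, adjusted p = 0.000593) also fell by less in the second set, and Spdef, at -1.04 in the first and 0.15 in the second, differed too (adjusted p = 0.00459).

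Cps1 was -3.46 in the first set and -1.4 in the second (difference 2.09, SE 0.328, adjusted p = 0.0017), and Otc -1.23 and -0.43 (adjusted p = 0.000953). Cth (-2.33 and -1.41, adjusted p = 0.00359) and Pla2g5 (-7.2 and -4.09, adjusted p = 0.00324) did likewise. Further genes with large differences of this kind were the cortactin-binding Cttnbp2 (-4.66 and -2.15), the organic anion transporter Slco2b1 (-4.11 and -1.71) and the cell cycle regulator Rgcc (-3.84 and -1.5), with adjusted p = 0.000355, 0.000605 and 0.0016.

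A smaller group fell further in the second set or only there passed the test. Cbs was -2.12 in the first set and -5.5 in the second (difference -3.37, SE 0.443, adjusted p = 0.000379). Ak1 was at 1.42 to 2.96 CPM with DMSO and 1.58 to 2.43 CPM with 4-OHT in the first set, an estimate of -0.05 against -3.97 (adjusted p of the difference 0.000796). The zinc finger gene Zfp618 rose in the first set, by 0.81, and fell in the second, -1.31 (adjusted p of the difference 0.000273), and flox/+ libraries were at 8.43 to 13.1 CPM, between CreER-only at 15.8 to 20.3 and flox/flox at 6.03 to 7.66 CPM, without overlap. Ehf (0.43 and -0.34, adjusted p = 0.00139), Notch2 (0.61 and -0.29, adjusted p = 0.00516) and Kmt2a (0.30 and -0.43, adjusted p = 0.00476) also rose in the first set and fell in the second.

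Sterol genes rose in the second set and not in the first. In the first set none of the 25 rose and 6 fell (median -0.13), where 17.2% of all tested genes fell, and 3 to 8 fell with single libraries left out. In the second set 20 rose, or 15 to 21 with single libraries left out. The difference was called in 17 of 25, each higher in the second set (median 0.61), but in 4 of 25 without the 4-OHT library of first-set line 1. Hmgcs1 was at 644, 545 and 543 CPM with DMSO and 457, 580.4 and 516 CPM with 4-OHT in the first set, a difference between sets of 0.78 (SE 0.156, adjusted p = 0.00642) that passed whichever library was left out. Insig1 fell there from 754, 689.8 and 674 CPM to 281, 445 and 327 CPM (-1.01, adjusted p = 0.00387), and its difference, 1.47 (SE 0.251, adjusted p = 0.00265), passed likewise. For nuclear oxidative phosphorylation genes the difference was called in 15 of 32, each higher in the second set, and in 8 without that same library. The first-set median of that list was -0.31, with 17 falling, or 9 without that library.

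Of 27 fetal-like genes tested, 19 rose in the first set (median 1.54), where 18.2% of all tested genes rose. In the second set 8 rose (median 0.30), where 21.9% did. The difference was called in 4 of the 27, all lower in the second set, where it was called in 8.31% of all tested genes. Without the 4-OHT library of first-set line 1, 2 of all 30 listed genes were lower and 1 was higher. Over all genes 483 differed in that case. S100a6 was at 164 to 231 CPM with DMSO and 980.0 to 1308 CPM with 4-OHT in the first set (2.47 against 1.5, adjusted p of the difference 0.373). Lamc1 rose in both sets, by 1.45 in the first and 0.49 in the second, and the difference of -0.94 (SE 0.0950, adjusted p = 8.5e-05) passed with each library left out in turn, as did that of Egfr (0.65 and -0.07, adjusted p = 0.00548) and of Tcf7l2 (-0.08 and 0.54, adjusted p = 0.00838).

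For some genes no difference between the sets was called. Ep300 was 1.31 in the first and 1.41 in the second, Crebbp 1.19 and 0.93, Eif1 1.01 and 0.88, Tnfrsf10b 1.41 and 1.57, Yap1 0.63 and 0.49, and Nf2 -0.72 and -0.77. The adjusted p of the difference was 0.513, 0.192, 0.508, 0.656, 0.416 and 0.864 in that order, which does not show that the effects were equal. DNA replication genes had medians of -0.45 and -0.39, with 6 and 29 of 40 called lower. The first-set count was 1 without the 4-OHT library of line 1, 38 without that of line 3 and 14 with the lines as a block, so the counts are no measure of a difference between sets. The difference itself was called in none by edgeR, in 1 with the block and in 13 without the 4-OHT library of first-set line 3.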

How the data were processed

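RNA from 4 flox/flox, 4 CreER-only and 4 flox/+ organoid libraries was sequenced after poly(A) selection with a strand-marking (dUTP) method. The deposited table holds unnormalized read counts of 54532 genes, 1 column a library, per the labels, and its values were whole numbers. HISAT2 2.0.5 and GRCm38/mm10 are named per the submitters' processing notes. The counting program, the annotation and the strand setting are not given in the sources used here, so counts of overlapping antisense genes, near-identical paralogs and pseudogenes are uncertain.

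The 12 libraries were fitted together in edgeR 4.0.16 under R 4.3.3 (quasi-likelihood F-test with robust dispersions, TMM scaling, genes filtered by filterByExpr, no covariate). P-values were adjusted by Benjamini-Hochberg over all tested genes, with 0.05 as the threshold for a call. Levels are TMM-scaled CPM. The first set (6 libraries) was fitted on its own, and the difference between sets in a fit of all 18 libraries. The script was tested on simulated data. Multidimensional scaling used limma 3.58.1.

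Genes named are Eif4g2, the 12 largest rises and falls among calls without overlap between groups and averaging 3 or more in log2 CPM (3995 genes, predicted genes, Rik clones and pseudogenes left out), the first 3 tested members of each list, its 2 smallest p in each direction, and the 5 largest differences between sets in each direction under the same filter. The text gives a selection of them, some named by the rule are not reported here, and exceptions are marked. The genes, lists and tests were chosen with earlier results of these data known. Same-numbered flox/flox and CreER-only libraries had residual correlations of -0.0901, -0.0358, -0.017 and -0.1227, so the numbers did not pair. In the first set, same-numbered libraries are of the same line (0.3175, 0.3293 and 0.5006). No 2 libraries agreed within sampling noise (chi-square per degree of freedom at least 6.262, the value for flox/flox libraries 1 and 2). The alternatives were DESeq2 1.42.0 size factors and its Wald test, no filter beyond 1 read, only the 8 compared libraries, a replicate block, and leaving out each library. List counts under a block or with a library left out are over all listed genes tested in that fit. They can hold members untested in the main fit. The blocks for flox/+ and for the difference between sets were added after the data were seen.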

Additional observations from a re-analysis of the deposited data

Results flagged for a closer look

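The effect in the second organoid set differed from that in the first for 1289 of 15511 genes (8.31%), by a test of the difference between sets. It differed for 48 of the 160 genes examined here. Some of the 160 were named for the size of this same difference, and others for their change in the second set. The 48 is therefore no share to set against the 8.31%. The values are the second set's log2 fold change less the first set's. For 24 of these genes the difference was called whichever of the 14 libraries was left out. Higher in the second set among them were Pla2g5 (3.1), Cttnbp2 (2.53), Slco2b1 (2.43), Rgcc (2.37), Cps1 (2.09), Olfm4 (2.08), Lfng (2.02), Insig1 (1.47), Dll4 (1.37), Spdef (1.22), Ascl2 (1.02), Cth (0.94), Otc (0.83), Hmgcs1 (0.78), Tcf7l2 (0.64) and Cebpg (0.58). Lower in the second set were Ak1 (-3.91), Cbs (-3.37), Zfp618 (-2.1), Lamc1 (-0.94), Notch2 (-0.88), Ehf (-0.75), Egfr (-0.70) and Kmt2a (-0.70).

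The other 24 lost the call without at least 1 library, 23 of them without the 4-OHT library of first-set line 1 and 19 without the DMSO library of first-set line 3. Higher in the second set among these were Neurog3 (1.68), Lgr5 (1.58), Dpp4 (1.26), Gkn3 (1.25), Myb (1.11), Dll1 (1.03), Cyp51 (0.85), Dhcr7 (0.84), Nfe2l2 (0.80), Fads1 (0.77), Pdcd4 (0.64), Oat (0.64), Axin2 (0.56), Isx (0.54), Idi1 (0.53), Atf4 (0.40) and Cdx2 (0.35). Lower were Abca1 (-1.98), Hmgn3 (-1.45), Trpm5 (-1.0), Rpl38 (-0.63), Tead1 (-0.51), Soat1 (-0.48) and Kcnq1 (-0.42). Sex and line differed between the sets, as did the control, so their part cannot be told apart from the set.

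A single library stood far from the other 3 of its group in 17 of 320 gene and group pairs, by the gap relative to the group's range, where chance gives about 1 in 20. In flox/flox line 2 these were Apaf1 at 125 CPM (above 111 to 113) and Cym at 0.0663 CPM (the others at 0). In flox/flox line 3 these were Hnf4a at 1057 CPM (below 1250.0 to 1273) and Hspa5 at 918 CPM (below 1018 to 1030.0). In flox/flox line 4 these were Cfi at 6.57 CPM (above 4.54 to 4.84), Defa2 at 13.4 CPM (above 0.468 to 0.729), Defa37 at 11.1 CPM (above 0.398 to 0.772) and Jag1 at 45.1 CPM (above 35.4 to 35.8).

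In CreER-only library 1 these were Lamc1 at 116 CPM (above 107 to 108), Maoa at 556 CPM (above 396 to 419.8), Notch2 at 34.5 CPM (below 41.4 to 42.3) and Reg4 at 104 CPM (below 137 to 144). In CreER-only library 3 these were Lct at 113 CPM (above 56.0 to 64.5), Plin2 at 96.0 CPM (above 75.9 to 77.8) and Slc2a5 at 143 CPM (above 78.3 to 81.9). In CreER-only library 4 these were Apaf1 at 59.0 CPM (below 73.2 to 74.9) and Cd44 at 118 CPM (above 37.6 to 43.6).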

How the results depend on the processing

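The count for flox/flox against CreER-only, 6448, ran from 5731 to 6334 with single libraries left out and was 6623 by the DESeq2 Wald test, 6451 with DESeq2 size factors, 6245 without a filter, 5827 with only the 8 compared libraries and 5932 with a replicate block. Changes beyond 1 on the log2 scale, 1523, ran from 1309 to 1890 over these alternatives. In flox/+ the 16 calls became 148 by the DESeq2 Wald test, 60 without a filter, 4 with a replicate block and 1 to 32 with single libraries left out, fewest without CreER-only library 3 and most without flox/+ line 1. The first set's 5422 calls ran from 3672 to 6770 with single libraries left out, and were 6622 with a replicate block, here of the same line. The 1289 differences between sets became 483 to 1827 with single libraries left out and 1723 with a replicate block for the lines of the first set, which lost none of the calls for genes examined here and added 9 (Ang4, Btg2, Cyp2c29, Mmp7, Nupr1, Spink4, Tac1, Tff3 and Tph1). The total for flox/flox against CreER-only stayed within 1.5 times in each of these alternatives, while counts for single lists moved by more where given in the text. The mitochondrial difference ran from 0.061 to 0.427 percentage points with single libraries left out.

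Of 160 genes examined, 148 kept direction and side of the threshold in every alternative. Calls of Cdkn1a, Cyp51, Insig1, Mki67 and S100a6 were lost in several, among them the block. Defa2 was called without flox/flox line 4, and Reg3b was called with only the 8 compared libraries (adjusted p = 0.00909). Direction turned for 5 genes that were not called, with these ranges over single libraries left out: Cdx2 -0.06 to 0.03, Dhcr7 -0.16 to 0.08, Dll1 -0.21 to 0.02, Sis -0.22 to 0.04 and Defa37 -1.9 to 1.04. Under the block Defa37 was -0.06. The cause was not tested. A covariate for Y-linked transcripts could not be fitted, since all 12 libraries carry them. Depth limits genes below a few reads per library, such as Slc14a1 and Cym, whose fold changes are given as a bound or a ratio of reads.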
